A study of Mus musculus with 4 samples.

Results

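Far wild-type-only peaks are H2A.Z-bound regions that were called in wild-type cells, shared no base with any knockout peak and lay more than 5000 bp from the nearest knockout peak on the same chromosome, edge to edge. There were 4279 of them among the 37667 wild-type peaks, or 11.4% (95% interval 11.04 to 11.7%), and they covered 5.00 Mb of the 68.8 Mb of wild-type peak sequence. They were chosen by overlap with and distance to the knockout peaks of these same libraries, so their absence from the knockout list is how they were picked and not a result. The rest of the wild-type list consisted of 30775 peaks that shared at least 1 bp with a knockout peak, called shared peaks here, and 2613 near wild-type-only peaks, which had no such overlap but lay within 5000 bp of a knockout peak. The same rule turned round picked 7949 of 41912 knockout peaks, or 19.0%.

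Libraries came from mouse embryonic fibroblasts (MEFs), connective-tissue cells grown from the minced torso of single embryos at embryonic day 10.5. Wild type was Anp32e+/+ and knockout was Anp32e-/-, both from crosses of Anp32e+/- mice on a C57BL/6 background. Cells of both genotypes were at passages 5 to 10 and had been cultured for at most 1 month. Each genotype had 1 H2A.Z chromatin immunoprecipitation (ChIP-seq) library, and how the null allele was made is not given in the sources used here. With 1 library each, embryo, culture, library and genotype cannot be told apart, and nothing below is a test between genotypes. Intervals cover counting error over peaks only and treat neighbouring peaks as independent.

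H2A.Z is a variant of histone H2A that sits in nucleosomes beside active and poised promoters and at enhancers. Dedicated remodelling complexes exchange it into nucleosomes in place of H2A, and other factors take it out again. Anp32e is a histone chaperone that binds H2A.Z and has been described as removing it from chromatin. The set described here holds the sites at which only the wild-type library had a peak, with no knockout peak nearby. The lists give only the position of each peak, so a site without a knockout peak may still have carried H2A.Z below the calling threshold.

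Far wild-type-only peaks were narrow, and chromosome 4 held more of them than any other chromosome. Their median width was 1123 bp, against 1840 bp for shared wild-type peaks. Chromosome 4 held 716 of the 4279, or 16.7%, although it held 8.40% of wild-type peaks. It also held 417 of the 2613 near wild-type-only peaks. Far peaks made up 63.2% of its wild-type-only peaks, near and far together, and 61.9% of those elsewhere, with overlapping intervals. The excess on chromosome 4 is thus not particular to far wild-type-only peaks. In all, 1852 far wild-type-only peaks (43.3%) stood in runs of 2 or more with no other peak of either genotype between them. The longest run had 13 and lay on chromosome 8.

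Gaps to the knockout peaks ran from the limit set by the rule to 2762 kb. The median gap was 18.3 kb (quartiles 9.43 and 42.6 kb). Beyond 10 kb lay 3116 far wild-type-only peaks, beyond 50 kb 908, beyond 100 kb 433 and beyond 500 kb 34. Chromosome 4 was like the rest in this respect, with a median gap of 18.8 kb (95% interval 17.3 to 21.1 kb) against 18.2 kb (95% interval 17.3 to 19.1 kb) on the other chromosomes. The curves of both sets in the plot of distances overlie each other up to about 100 kb, which 72 peaks of chromosome 4 and 361 of the others exceeded.

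**Figure D1:**
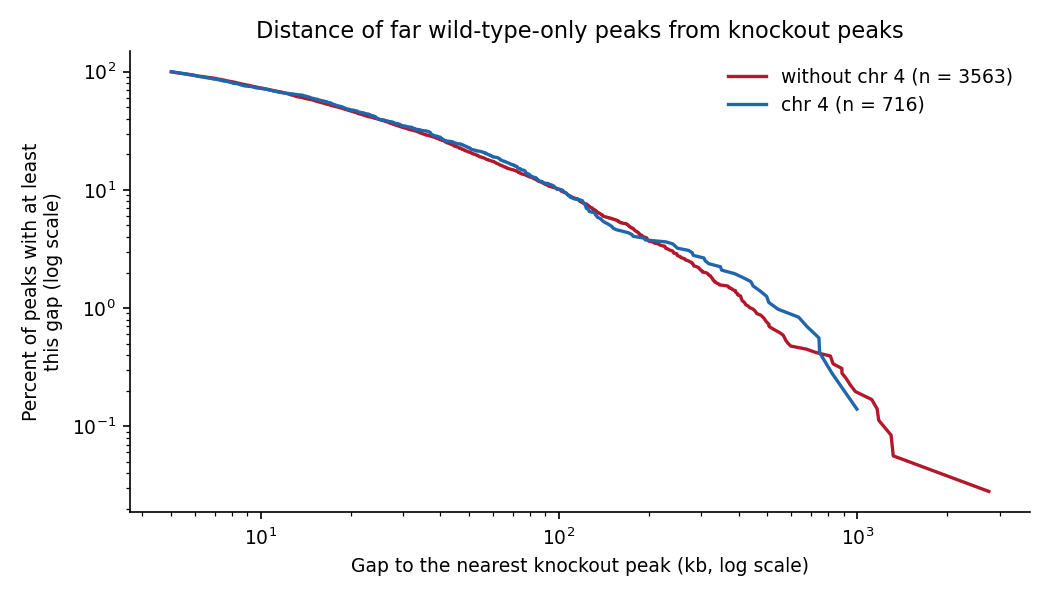
Gap in kb to the nearest knockout peak (x axis, log scale) against the percent of far wild-type-only peaks with at least that gap (y axis, log scale), for chromosome 4 (blue, n = 716) and the other chromosomes (red, n = 3563). Both lines start at the 5 kb limit of the rule and have similar medians, 18.8 and 18.2 kb.

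The 5000 bp limit had wild-type-only peaks close to it on either side. Just inside it lay peaks at chr2:131666309-131667460 (1152 bp wide, gap 5010 bp), chr8:107885401-107886859 (1459 bp, gap 5019 bp) and chr11:103194034-103195861 (1828 bp, gap 5019 bp). Just outside it lay peaks at chr3:104573368-104574655 (1288 bp, gap 4995 bp), chr11:102817677-102819099 (1423 bp, gap 4991 bp) and chr4:148517461-148518223 (763 bp, gap 4988 bp). These peaks were picked for gaps close to the limit, so they cannot show whether the set is a class of its own. Gaps over 2 kb were found for 5473 wild-type-only peaks, over 5 kb for 4279 and over 10 kb for 3116.

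At the other end of the range, 6 far wild-type-only peaks lay more than 1000 kb from any knockout peak, none of them on chromosome 4. The most remote was at chr14:109310255-109311173, 919 bp wide and 2762 kb from the nearest knockout peak. It was followed by a 1160 bp peak at chr2:100146177-100147336 with a gap of 1321 kb and a 1013 bp peak at chr7:15207536-15208548 with a gap of 1298 kb. The next ones were 597 bp wide at chr12:95747924-95748520 (gap 1180 kb) and 683 bp wide at chr17:61566196-61566878 (gap 1166 kb). Of these 5, only the chromosome 7 peak stood alone, and the others belonged to runs of 2 to 4. All were below or close to the median width of the set.

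Width separated far wild-type-only peaks from shared peaks and barely from near wild-type-only peaks. The middle 50% of far wild-type-only peaks measured 964 to 1290 bp, that of near ones 997 to 1326 bp and that of shared peaks 1355 to 2387 bp. The median of near peaks was 1142 bp (95% interval 1132 to 1152 bp), 19 bp above that of far ones (95% interval 1113 to 1131 bp). Far peaks had the lower median on 17 of 20 chromosomes against near peaks and on all 20 against shared peaks. Only 82 of the 4279 were wider than 2000 bp (1.92%), compared with 42.2% of shared peaks, while 30.2% were narrower than 1000 bp, compared with 4.92%. Peak width depends on how far the enrichment stands above the calling threshold, which the lists do not record, and a part of the threshold in these differences was not tested.

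**Figure D2:**
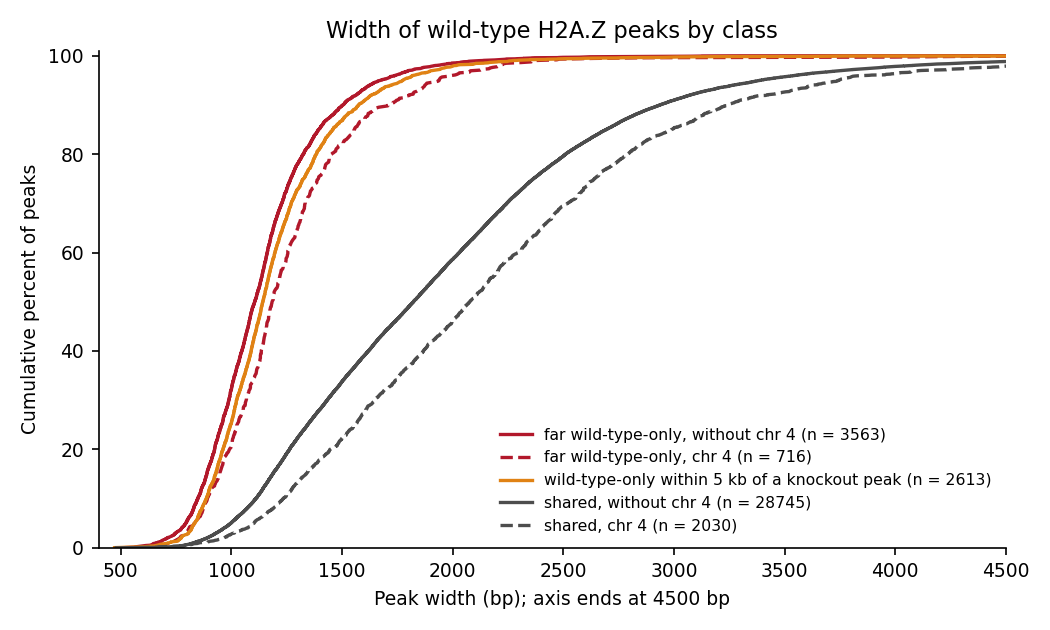
Cumulative percent of wild-type peaks (y axis) up to each width in bp (x axis) for far wild-type-only (red), near wild-type-only (orange, all chromosomes in 1 line) and shared peaks (grey). For the red and grey sets chromosome 4 is drawn apart as a dashed line. The red and orange lines lie close together, with medians between 1105 and 1184.5 bp, left of the grey ones at 1823 and 2077.5 bp, and in both red and grey the dashed line lies to the right.

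Far wild-type-only peaks made up a steadily smaller share of the list as peaks widened. Among the narrowest 20% of wild-type peaks (472 to 1153 bp) 31.6% were far wild-type-only. In the next 3 groups of 20%, by rising width, the shares were 17.2%, 6.29% and 1.39%, and among the widest 20% (2405 bp and above) 22 of 7533 peaks were, or 0.292%. The narrowest 20% of the list held 55.7% of the set and the next 20% held 30.2%. More remote peaks were also somewhat narrower, with a median of 1147 bp at gaps over 5 to 10 kb, 1132 bp over 10 to 50 kb, 1073 bp over 50 to 100 kb and 1044 bp over 100 kb. Without chromosome 4 those medians were 1128, 1118, 1066 and 1039 bp.

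Far wild-type-only peaks of chromosome 4 were wider than those elsewhere. Their median was 1184.5 bp (95% interval 1167 to 1210 bp), compared with 1105 bp (95% interval 1093 to 1116 bp) on the other 19 chromosomes. It was the highest of the 20 chromosome medians, which reached down to 1007 bp on chromosome 13. Shared wild-type peaks were wider there too, 2077.5 bp against 1823 bp, so the excess is not particular to far wild-type-only peaks. At equal width chromosome 4 still had the larger share of them. Among the narrowest 20% of the list, 51.1% of its peaks were far wild-type-only (95% interval 47.02 to 55.1%), against 29.9% elsewhere (95% interval 28.8 to 31.02%). In the next 20% the shares were 37.6% and 15.2%, and in the 20% after that 17.9% and 5.29%.

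The widest far wild-type-only peak was 5513 bp at chr17:3080473-3085985, 15.6 kb from the nearest knockout peak. Chromosome 4 held the next 3, which were 5074 bp at chr4:153618526-153623599, 4329 bp at chr4:44723270-44727598 and 3997 bp at chr4:82182266-82186262. The first of these lay 6.03 kb and the second 5.38 kb from a knockout peak, just past the limit of the rule, whereas the third lay 22.5 kb away inside a run of 7. Chromosome 15 held peaks of 3296 bp (chr15:75433479-75436774, gap 7.14 kb) and 3126 bp (chr15:96558516-96561641, gap 11.3 kb). Wide peaks far out were a 3121 bp peak at chr6:23197092-23200212, 370.7 kb from a knockout peak, and a 3073 bp peak at chr16:3231385-3234457, 397.5 kb from one. The remaining pair of the 10 widest measured 3047 bp at chr2:168402748-168405794 and 2928 bp at chr12:34650947-34653874. The chromosome 17 and chromosome 16 peaks were each the first wild-type peak on their chromosome. Repeats and poorly mapped sequence were not removed here, so wide and chromosome-end peaks were not checked for them.

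Below the 10 widest, the next 5 off chromosome 4 fell from 2749 to 2573 bp. They lay at chr12:110777890-110780638, chr14:25779267-25781886, chr8:67001121-67003724, chr5:141677710-141680294 and chr5:132467706-132470278, at gaps of 19.4 to 411.7 kb. The last of them stood in a run of 8. The narrowest members of the set were 509 bp at chr11:54203779-54204287, 524 bp at chr7:91828488-91829011 and 542 bp at chr15:23494856-23495397. Wide peaks were thus found at both short and long gaps from the knockout list.

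All 20 chromosomes of the list carried far wild-type-only peaks, in shares that differed by several fold. They were 22.6% of the 3163 wild-type peaks of chromosome 4 (95% interval 21.2 to 24.1%). Chromosome 12 followed with 20.7% of 1374 (95% interval 18.6 to 23.0%) and chromosome 6 with 18.6% of 1732 (95% interval 16.8 to 20.6%). The interval of chromosome 12 overlapped both others, while that of chromosome 6 ended below that of chromosome 4. Chromosome 14 had 13.4%, chromosome 11 had 12.6% and chromosome 17 had 12.2%. At the low end stood chromosome 1 with 89 of 1925 peaks (4.62%), chromosome 16 with 58 of 1071 (5.42%), the X chromosome with 37 of 658 (5.62%) and chromosome 7 with 126 of 2122 (5.94%). Per length of chromosome between the outermost peaks, chromosome 4 had 4.70 per Mb, chromosome 11 had 3.23 and the X chromosome had 0.230. Knockout peaks were fewer than wild-type peaks on chromosomes 4 (2258), 12 (1103), 6 (1469), 11 (2715 against 3040) and 17 (1729 against 1827). They were more numerous on chromosomes 1 (3260), 16 (1707), X (760) and 7 (2395), and about equal on chromosome 14 (1037 against 1029). The rule is met more easily where knockout peaks are few, and how much of the spread that makes was not tested.

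**Figure D3:**
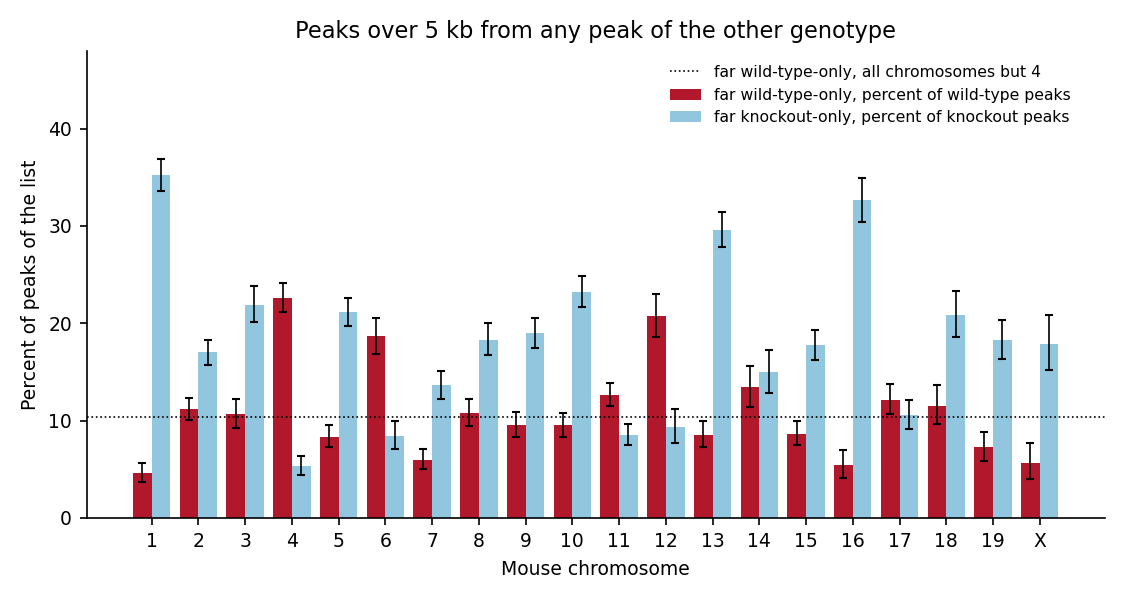
Percent of wild-type peaks that are far wild-type-only (red) and percent of knockout peaks that are far knockout-only by the same rule (blue) on each mouse chromosome (x axis). Bars start at 0, error bars are exact 95% intervals, and the dotted line is the 10.3% of all chromosomes but 4. Red exceeds that line most on chromosomes 4, 12 and 6, where blue is below 10%.

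Leaving out chromosome 4 kept an uneven spread. The other 19 chromosomes held 3563 far wild-type-only peaks, 10.3% of their 34504 wild-type peaks (95% interval 10.01 to 10.7%), and their shares ran from 4.62 to 20.7% with a median of 9.51%. Chromosome 6 then held 9.07% of the set against 5.02% of wild-type peaks, and chromosome 12 held 8.0% against 3.98%. Chromosome 11 held 10.8% against 8.81%, and chromosome 2 held 9.91% against 9.16%. Chromosome 1 was short of them, with 2.50% against 5.58%. Chromosomes 4, 6, 11 and 12 together carried 1708 of the 4279, or 39.9%, and 24.7% of wild-type peaks.

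The opposite set was scarce on most of the chromosomes richest in far wild-type-only peaks, and common on some but not all of those poorest in them. Chromosome 4 had 120 far knockout-only peaks, 5.31% of its knockout peaks. Chromosome 6 had 124 (8.44%), chromosome 11 had 232 (8.55%) and chromosome 12 had 103 (9.34%). Chromosome 14, with a larger share of far wild-type-only peaks than chromosome 11, had 155 (14.9%). By contrast there were 1148 (35.2%) for chromosome 1 and 557 (32.6%) for chromosome 16. Chromosome 7 with 13.6% and the X chromosome with 17.9% were below the 19.0% of the whole knockout list, although both were low in far wild-type-only peaks too. Far wild-type-only peaks outnumbered far knockout-only ones on 5 chromosomes, 4, 6, 11, 12 and 17, and were fewer on the other 15. Both sets come from the same pair of lists, so these shares are not independent of each other.

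Along chromosome 4 every stretch had an elevated share. In its 8 bins of 20 Mb the share of far wild-type-only peaks ran from 13.4% of 861 wild-type peaks (120 to 140 Mb) to 39.1% of 207 (0 to 20 Mb, 95% interval 32.4 to 46.1%). Its bin from 80 to 100 Mb was next, with 102 of 290 (35.2%). Over all 136 bins with at least 50 wild-type peaks the median share was 10.3%, and 34 of the 128 bins on other chromosomes exceeded the lowest one of chromosome 4. Chromosomes 6 and 12 supplied 12 of those 34 from their 14 bins. The highest bin off chromosome 4 was 140 to 160 Mb on chromosome 6, with 44 of 140 (31.4%), where the neighbouring bin had 15.7%.

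Far wild-type-only peaks stood in emptier surroundings than other wild-type peaks, an outcome that the rule favours. Within 50 kb they had a mean of 3.09 other wild-type and 2.67 knockout peaks. Near wild-type-only peaks had 6.16 and 6.08, and shared peaks 4.36 and 5.66. The knockout counts are partly set by the rule, which bars knockout peaks within 5000 bp of far peaks and requires them for near and shared ones. The mean number of other wild-type peaks was below that of shared and of near peaks on each of the 20 chromosomes. The median far peak was 14.7 kb from the next wild-type peak of any kind, compared with 7.80 kb for shared and 2.28 kb for near peaks. Neither list had another peak within 50 kb of 579 of them.

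The rule itself favours empty surroundings, because a site in crowded sequence is seldom more than 5000 bp from a knockout peak. Among wild-type peaks with no other wild-type peak within 50 kb, 18.5% were far wild-type-only, compared with 10.8% at 3 to 5 such neighbours and 3.90% at 11 or more. With near and far wild-type-only peaks counted together the shares were 19.3, 18.3 and 18.2%. Off chromosome 4 the combined shares still declined, from 18.2% (95% interval 17.0 to 19.5%) to 16.9 and 14.8% (95% interval 13.2 to 16.4%). On chromosome 4 they were 39.3, 35.2 and 34.5%, with overlapping intervals. Chromosome 4 was above the other chromosomes in sparse and in crowded sequence alike.

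Runs were counted as unbroken series of far wild-type-only peaks along a chromosome, ended by any other peak of either list. Of the 4279, 2427 stood alone and 1852 formed 744 runs, namely 523 of 2 peaks, 152 of 3 and 69 of 4 or more. The median run spanned 28.02 kb (quartiles 11.6 and 75.4 kb), and 608 of the 744 spanned at most 100 kb. Neighbours within a run lay a median of 17.3 kb apart, and 406 of the 1108 spaces were 10 kb or less. Runs and lone peaks together had 6342 sides, of which 72.4% faced a shared peak, 22.1% a knockout-only peak and 5.49% a near wild-type-only peak. Shared peaks were also the most common kind in the lists. There were 30775 shared and 2613 near wild-type-only peaks, and 28.06% of knockout peaks were knockout-only. Peaks in runs had a median width of 1135 bp (95% interval 1119 to 1147 bp) and lone ones 1114 bp (95% interval 1097 to 1126 bp), with overlapping intervals.

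Chromosome 4 held more of the long runs than its share of peaks. There 464 of 716 far wild-type-only peaks stood in runs, or 64.8% (95% interval 61.2 to 68.3%), compared with 39.0% of 3563 elsewhere (95% interval 37.4 to 40.6%). Chromosomes 12 and 6 followed with 58.2 and 55.1%, then chromosomes 17 and 11 with 46.8 and 45.8%, and the share lay between 20.7 and 38.0% on the other chromosomes. Of 30 runs of 5 or more, 17 lay on chromosome 4, and the remaining 13 on chromosomes 5, 6, 7, 8, 10, 11, 12 and 15. Runs of 5 or more held 14.8% of the far wild-type-only peaks of chromosome 4 and 2.47% of those elsewhere. A chromosome with a larger share of such peaks also has longer runs when they fall at any place among the others, and how much of the difference that makes was not tested.

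**Figure D4:**
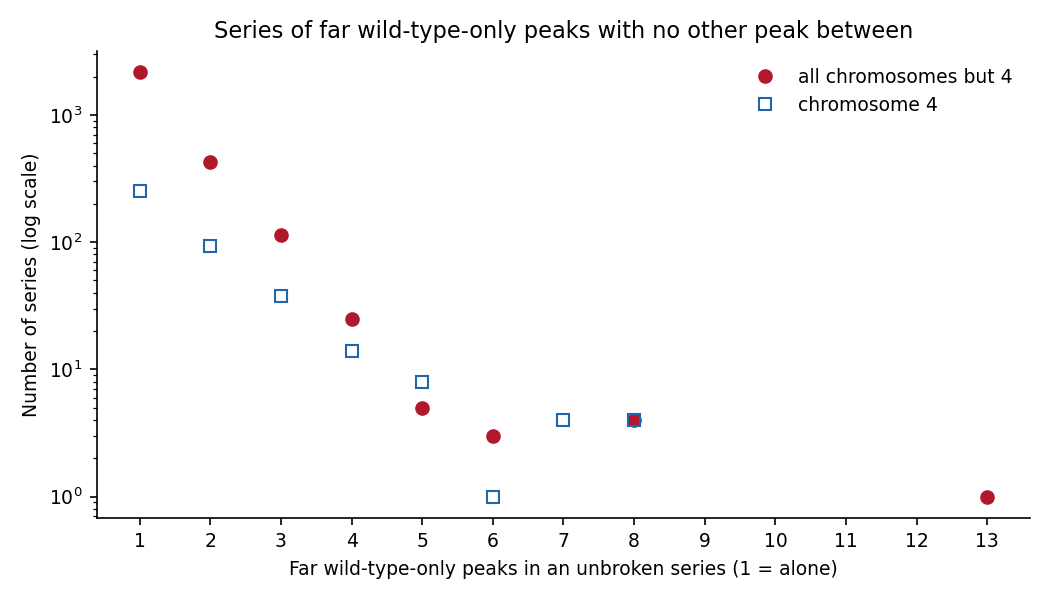
Number of unbroken series (y axis, log scale) by the number of far wild-type-only peaks in them (x axis), for chromosome 4 (blue squares) and all other chromosomes (red circles); lengths with no series have no point. Series of 7 occurred on chromosome 4 alone (4 of them), series of 8 were 4 in each set, and the series of 13 was off chromosome 4.

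The longest run held 13 far wild-type-only peaks over 516.7 kb at chr8:105816602-106333347. The knockout list was empty for 607 kb around it, from 19.2 kb before to 71.06 kb behind, and a shared peak stood on either side. Its peaks were 929 bp wide at the narrowest, 1055 bp in the median and 1827 bp at the widest. A peak of 1071 bp at chr8:105816602-105817672 opened it, 19.2 kb from a knockout peak. Then came 8 peaks between 105987079 and 106107689, of 941 to 1227 bp, with gaps of 189.7 to 302.4 kb to the nearest knockout peak. A peak of 929 bp at chr8:106225932-106226860 and ones of 1008, 1827 and 1280 bp completed the run. With 100 kb on either side, this stretch had 17 wild-type and 2 knockout peaks.

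Next came 8 runs of 8 peaks, 4 of them on chromosome 4. The most compact lay at chr4:107605011-107651247, where 8 peaks of 899 to 2310 bp (median 1412 bp) stood within 46.2 kb and filled 25.7% of it. Its gaps to the knockout list were 5.13 to 20.6 kb. Shared peaks bordered it at 8.30 kb and 5.13 kb, so the knockout list was empty for only 59.7 kb. With 100 kb on either side the wild type had 19 peaks and the knockout 9, and all 9 knockout peaks there overlapped wild-type ones. The run at chr4:97277802-97374864 was of the same kind, with 8 peaks of 1005 to 1472 bp over 97.06 kb between shared peaks.

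Looser runs of 8 had wider empty stretches in the knockout list. This follows from how runs were counted, since a knockout peak ends a run and the empty stretch includes its whole span. One lay at chr7:6722563-6894385, 171.8 kb long, within 389.3 kb free of knockout peaks, with peaks of 921 to 1698 bp. Another at chr4:46696586-46894754 spanned 198.2 kb within 314.6 kb without a knockout peak, and included a peak of 2874 bp. A knockout-only peak bordered it on the side of lower coordinates, whereas the 4 runs described before it had shared peaks on both sides. The run at chr6:46994438-47354864 had 8 peaks of 606 to 1197 bp over 360.4 kb, at the edge of a stretch of 3786 kb without knockout peaks. The nearest knockout peak before it was 3377 kb away, and the next wild-type peak on that side was the one shared with it. The run of widest span had 3 peaks over 4739 kb, chr14:106415875-111154613, and included the most remote peak of the set.

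**Figure D5:**
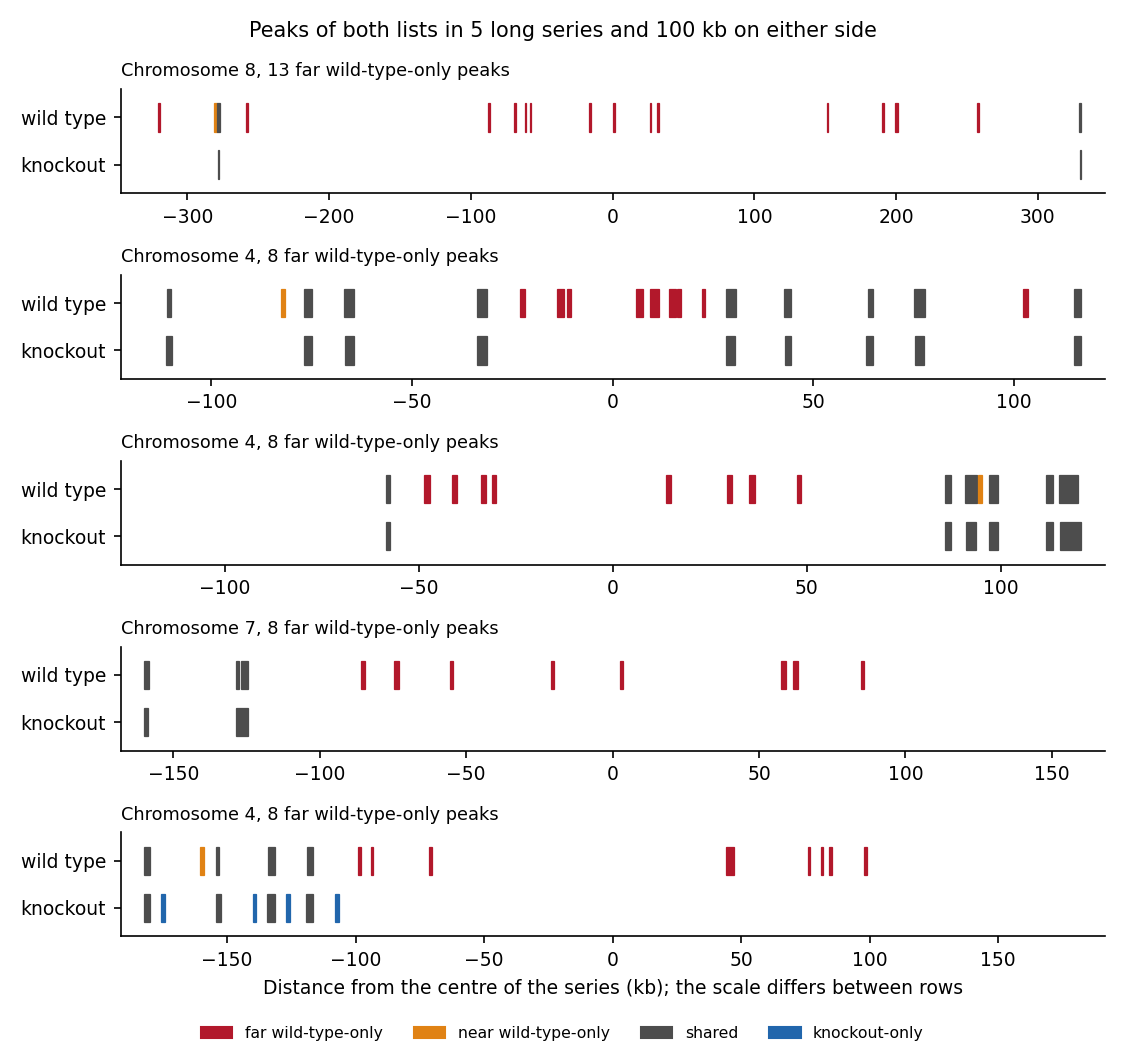
Peaks of the wild-type (upper row) and knockout list (lower row) in 5 series and 100 kb on either side, drawn to scale by distance in kb from the centre of the series (x axis, scale differs between rows). The series hold 13 red far wild-type-only peaks on chromosome 8 and 8 in each other case. A further red peak lies in the flank of the chromosome 8 series and of the uppermost chromosome 4 series. By the rule, red peaks have no counterpart in the lower row, while grey shared peaks at the sides are drawn in both.

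Widths of shared peaks next to far wild-type-only ones were also measured. The rule did not set them directly, but they come from the same peak edges and libraries that it used. For each far peak the nearest matched pair was taken, in which 1 wild-type and 1 knockout peak overlap each other and no other peak, at a median distance of 22.6 kb. In the median the knockout peak of that pair was 130 bp wider than its wild-type partner (95% interval 121 to 139 bp). Over all 28979 pairs the median was 215 bp. Off chromosome 4 the corresponding medians were 170 bp (95% interval 161 to 184 bp) and 231 bp. On chromosome 4 they were -61 bp (95% interval -79 to -47 bp) and -32 bp (95% interval -44 to -17 bp), so that knockout peaks were the narrower ones. Chromosomes 6, 11 and 12, which held more of the far peaks than of wild-type peaks, had all-pair medians of 93, 97 and 56 bp. How much of the pooled difference comes from this uneven spread was not tested. Pairs nearest to near wild-type-only peaks also had medians below all pairs, 165 bp (95% interval 148 to 182 bp) and 207 bp off chromosome 4. On chromosome 4 their median was -74 bp (95% interval -126 to -38 bp), and that interval overlapped the one of all pairs there. A lower pooled value is thus not particular to far peaks, but other single chromosomes were not compared for near peaks. The median of the pairs nearest to far peaks was below that of all pairs on 18 of 20 chromosomes, the exceptions being chromosomes 13 and 16. Chromosome 15 had 263 bp (95% interval 171 to 363 bp) against 363.5 bp (331 to 390 bp), and chromosome 7 had 150.5 bp (94 to 209 bp) against 226 bp (214 to 241 bp). Only on chromosomes 4 and 7 did the interval for far peaks end below that of all pairs. On chromosome 8 the intervals met at 212 bp, and on every other chromosome they overlapped. Chromosome 1, for example, had 388 bp (308 to 487 bp) against 409 bp (390 to 429 bp). A pair can be nearest to several far peaks and is then counted for each, which makes these intervals too narrow.

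The knockout peak nearest to a far wild-type-only peak was usually a shared one. It was a knockout-only peak for 963 of 4279, or 22.5% (95% interval 21.3 to 23.8%), and 28.06% of all knockout peaks were knockout-only. On chromosome 4 the share was 10.5% (95% interval 8.33 to 13.0%) against 10.1% of all its knockout peaks. Chromosome by chromosome the share was above that of all knockout peaks on 10 of 20 and below it on 10. Peaks of the knockout alone were thus neither regularly the nearest neighbours of far wild-type-only peaks nor regularly missing there.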

How the data were processed

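H2A.Z was immunoprecipitated from sonicated chromatin, and sequencing gave single-end reads 50 bases long, per the labels' protocols. The authors deposited 1 peak list per H2A.Z library, saved from Galaxy per the file headers, with the chromosome, start and end of each peak and no other value. The submitters' processing notes name build mm9 and the tools MACS 1.4.2, Bowtie 0.12.8, HOMER and CASAVA 1.8.2. Which step each served, the peak threshold and whether inputs were subtracted is not given in the sources used here. Depth is therefore unknown. The 2 input libraries were not analysed here.

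Starts count from 0 in the lists and from 1 in the text. Overlaps, gaps, runs and medians were computed with pandas 2.3.3, scipy 1.17.1 and numpy 2.4.6 under Python 3.11.15, drawn using matplotlib 3.10.9, and checked on simulated lists. Shares carry exact Clopper-Pearson intervals and medians exact binomial intervals from order statistics. Regions named are the widest, narrowest and most remote peaks, those at either side of the 5000 bp limit, the longest runs and the highest bins of 20 Mb; ties were broken by chromosome and position. The set and these lists were chosen with earlier results of these data known. Alternatives were other gap limits, merging of peaks, run rules, a width filter and omission of chromosomes. Gene names and sequences were not used, because the reference tables at hand are on another build.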

Additional observations from a re-analysis of the deposited data

How the results depend on the processing

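Of 70 alternative values, 31 moved outside the interval of the reported value or, for counts, by more than 1.5 times, and 39 did not. Gap limits of 2000 and 10000 bp gave shares of 14.5 and 8.27% of wild-type peaks, 28.7 and 16.3% on chromosome 4, median gaps of 12.7 and 27.6 kb and 41.7 and 45.03% in runs; the larger limit gave a median width of 1112 bp. Measured between centres, 12.8% of wild-type peaks qualified. Without chromosome 4 the share was 10.3%, the width 1105 bp and the part in runs 39.0%. Leaving out wild-type peaks below 1212 bp, their 25th percentile, removed most of the set. It left 1467 peaks (5.19%), a width of 1387 bp, a gap of 16.01 kb, 26.3% in runs, 168 runs and 5 in the longest, while chromosome 4 held 22.6% of the set and 13.9% of its peaks qualified. The part in runs was 46.5% when only wild-type peaks broke a run, 33.3% with spaces of up to 50 kb (8 in the longest) and 39.5% for wild-type-only peaks at any distance. Without chromosomes 4, 6, 11 and 12, a choice made after seeing the data, 2571 peaks (9.07%) remained, with a width of 1089 bp, 33.8% in runs and 370 runs. Chromosome 4 held 16.4 to 16.9% of the set under other gap limits, merging and autosomes alone. Why values moved was not tested for any alternative. No paired analysis was possible because there is a single library of either genotype. How deeply the knockout was sequenced is unknown, which limits every statement on an absent peak.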
